A study of Mus musculus with 2 samples.

Results

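The Rab GTPases are the largest branch of the Ras superfamily of small GTPases, and 56 of the 20373 genes listed in both RNA-seq tables belong to them. They were taken as every row whose symbol is Rab followed by a number and at most 1 lower-case letter, which leaves out Rab-like genes and the Rab-binding proteins. RNA had been sequenced from neurons and from neural progenitor cells (NPCs) of mouse cortex at embryonic day 15.5, with 1 library of each. All embryos were Nestin-GFP and DCX-mRFP double positive, offspring of heterozygous Nestin-GFP and homozygous DCX-mRFP mice. Neurons were the sorted cells that showed both colours, and NPCs the green ones. The reporters follow Nestin, an intermediate filament of progenitors, and doublecortin, a microtubule protein of young neurons, and their fluorescent proteins can outlast the transcripts. Of the 56 Rab genes, 48 reached 1 CPM (reads per 1000000 on a scale common to both libraries) in at least 1 library, and 8 did not.

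A Rab protein is a switch. Bound to GTP it sits on 1 kind of membrane by its prenylated tail and recruits effectors such as tethers, motors and kinases, and after GTP hydrolysis an inhibitor protein draws it back into the cytosol. Exchange factors load it with GTP, GTPase-activating proteins switch it off, and the identity of the Rab marks the compartment. In the developing cortex Rab5 and Rab11 are known for endocytic recycling of adhesion molecules in migrating neurons, Rab8 and Rab23 for their work at the primary cilium, and the Rab3 proteins for riding on synaptic vesicles. The genes were grouped by the best known step of each product into exocytic, endocytic, recycling, ciliary, and ER and Golgi members.

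Most Rab genes stood slightly higher in the neuron library, and the exocytic ones by the most. Of the 48 measured genes 39 (81.2%) lay on the neuron side and 9 (18.8%) on the NPC side, where 49.3% and 50.7% of all 12693 genes at 1 CPM or more lay. With 1 CPM added to both values, the log2 of neuron over NPC had a median of 0.20 over the Rab genes and −0.0049 over all genes. On that scale 3 Rab genes (6.25%) were past 2-fold towards neurons, where 3.85% of all genes were, and 0 towards NPCs, where 6.73% of all genes were. The count of 3 depends on the setting, because several genes lie close to 2-fold. It was 2 with the libraries scaled by TMM, and 1 with them scaled by total reads or by upper quartiles. With 5 CPM added it was 0, with 0.5 CPM added 5 and with none added 6. Past 1.5-fold, 9 (18.8%) lay towards neurons and 3 (6.25%) towards NPCs, against 10.6% and 13.1% of all genes. Regardless of direction the 12 genes make 25.0%, close to the 23.7% of all genes, and the 3 past 2-fold make 6.25%, against 10.6%. The share of large differences was thus near or under that of all genes, and those of the family lay mostly towards neurons. The summed level was 4041 CPM in neurons and 3438 CPM in NPCs, a 1.18-fold difference. On this scale all genes summed to 1023247 CPM in neurons and 976753 CPM in NPCs, a 1.05-fold difference. Summed ratios of groups are to be read against that 1.05. Since each group is 1 library, no replicate check or test was possible and no p-value is given. The 95% intervals in brackets after a fold describe the counting of reads alone. For 12 of the 48 genes that interval included equality, for 29 it lay wholly on the neuron side and for 7 wholly on the NPC side. At this depth even the 1.05-fold of Rab14 (1.01 to 1.09) lay wholly on 1 side. The shares of all genes by the same rule were not computed, so these counts have no background. Folds of named genes are plain ratios of CPM, with nothing added.

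**Figure D1:**
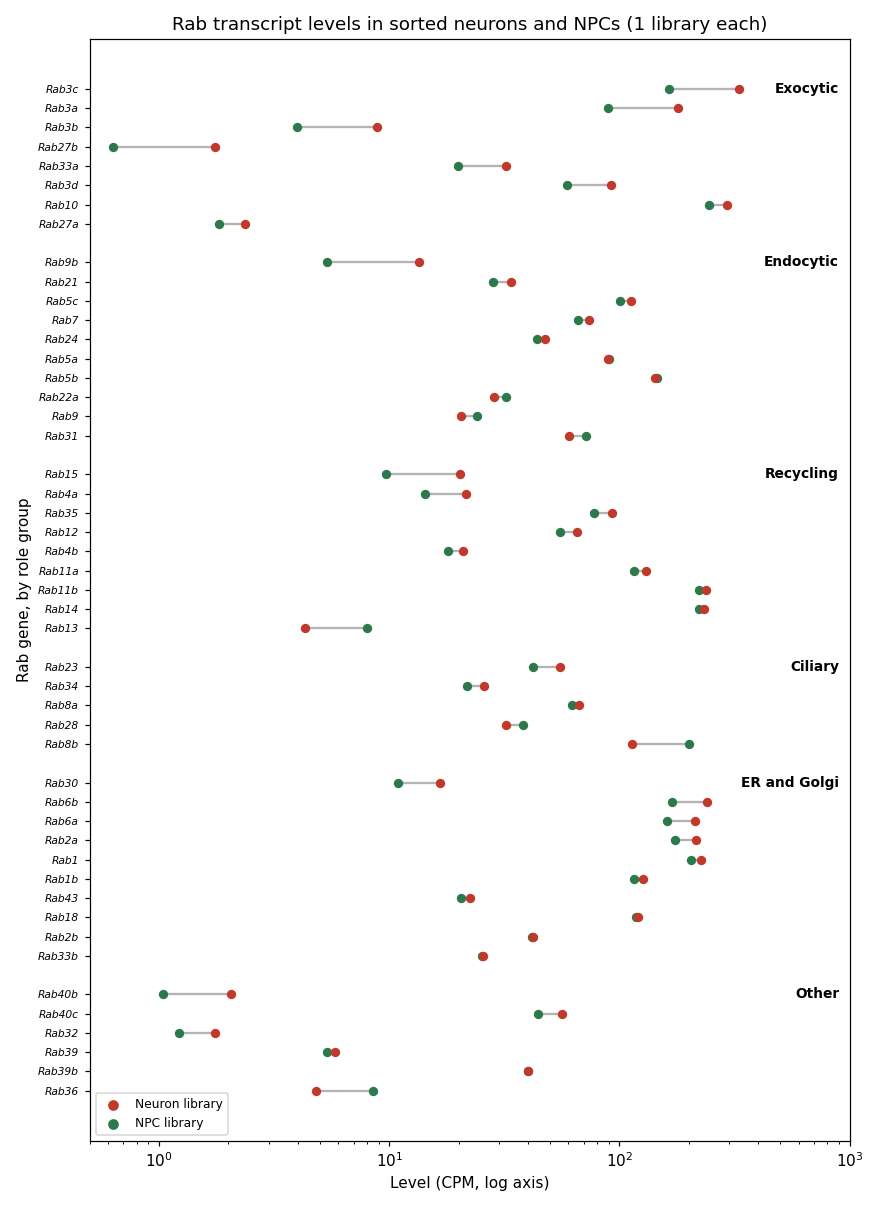
Level of each of the 48 measured Rab genes in CPM on a log axis, in the neuron library (red) and the NPC library (green), grouped by role and ordered within a group by that log2 ratio; points are single libraries without error bars. The measured exocytic genes all lie farther right in neurons, with Rab3c at 330.5 CPM in neurons and 164 CPM in NPCs, while Rab8b (113 CPM in neurons, 199.9 CPM in NPCs) and Rab13 (4.30 CPM in neurons, 8.05 CPM in NPCs) lie farther left.

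Marker genes showed what the sorted libraries held. All 8 radial glia markers and all 4 intermediate progenitor markers were at least 2-fold lower in neurons, with sums of 618 and 583 CPM in neurons against 1711 and 1687 CPM in NPCs. Of 6 neuron markers 5 were higher in neurons (8683 CPM in neurons and 5833 CPM in NPCs in sum). Dcx itself was at 3294 CPM in neurons and 2522 CPM in NPCs, so neuronal transcripts were abundant in the NPC library too. In bulk RNA, fewer cells of a type and less RNA per cell cannot be told apart. Markers of other cells also differed. All 10 microglia markers (139 CPM in neurons, 32.1 CPM in NPCs) and all 6 Cajal-Retzius markers (482 CPM in neurons, 116 CPM in NPCs) were higher in neurons. All 8 endothelial (3.34 CPM in neurons, 21.8 CPM in NPCs), 6 pericyte (9.35 CPM in neurons, 202 CPM in NPCs) and 5 oligodendrocyte lineage markers (2.81 CPM in neurons, 76.8 CPM in NPCs) were higher in NPCs, with Cspg4 on both of the last lists. All 7 markers of GABAergic interneurons were also higher in NPCs (217 CPM in neurons, 303 CPM in NPCs, median log2 ratio −0.43). The 3 measured erythroid markers and the 1 measured ependymal marker were higher in NPCs by less than 1.5-fold. Every marker of the microglia, Cajal-Retzius, endothelial, pericyte and oligodendrocyte lists had reads in both libraries. Their part in the Rab differences was not tested.

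Levels of different Rab genes were compared per kilobase (kb) of annotated exon, since longer transcripts give more reads. The length joins all annotated exons of a gene, in an annotation that need not be the one used for counting. Ranks and shares per kb rest on it, and the counting intervals leave its uncertainty out. For 7 measured genes, Rab2a, Rab5b, Rab6a, Rab7, Rab8b, Rab9 and Rab11b, values are uncertain because each has a processed pseudogene with at least 95% identity over at least 200 bases. Rab2a, which acts at the Golgi, ranked first in both libraries, at 101 CPM per kb in neurons and 81.4 CPM per kb in NPCs. Rab3a, the synaptic vesicle Rab, had rank 2 in neurons at 100.3 CPM per kb (counting interval 97.2 to 103), which does not differ from Rab2a (97.8 to 103) beyond counting error, and rank 7 in NPCs at 49.8 CPM per kb. Next in neurons came Rab10, Rab1 and Rab14, at 83.6, 79.7 and 75.3 CPM per kb in neurons and 69.7, 72.0 and 72.0 CPM per kb in NPCs, where Rab1 and Rab14 do not differ beyond counting error. The leading 5 genes in NPCs were Rab2a, Rab1, Rab14, Rab10 and Rab1b, whose products serve Golgi and post-Golgi traffic in most cells. Of the leading 10 genes in neurons, 9 were also the leading 9 in NPCs, in another order, and the exception was Rab6b, with rank 10 in neurons and rank 15 in NPCs. The lowest measured gene was Rab27b, at 0.233 CPM per kb in neurons and 0.0837 CPM per kb in NPCs.

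The measured exocytic Rab genes all lay on the neuron side. Of 10 listed genes 8 were measured, and 6 of them were past 1.5-fold towards neurons, where 10.6% of all genes were. The median log2 ratio of the 8 was 0.71, and that of the group was 0.65 with no filter on CPM. Rab27b reached 1 CPM in neurons only, while Rab26 and Rab37, below 1 CPM in both libraries, had lower values in neurons. Rab3c, carried on synaptic vesicles, was at 330.5 CPM in neurons and 164 CPM in NPCs, a 2.02-fold difference (1.94 to 2.09), and had the highest CPM of the group. Its log2 ratio was also the largest with 1 CPM added, while the plain folds of the scarcer Rab27b and Rab3b are larger. Rab3a, the main Rab of synaptic vesicles and a regulator of calcium-triggered release, was at 179 CPM in neurons and 89.0 CPM in NPCs (2.02-fold, 1.92 to 2.12). The Rab3a exons overlap those of Mpv17l2 on the opposite strand, and whether reads were assigned by strand is not given in the sources used here. Rab3b, a rarer vesicle paralog, had 8.87 CPM in neurons and 3.97 CPM in NPCs (2.24-fold, 1.76 to 2.85). Rab3d, best known from secretory granules of gland cells, was at 91.7 CPM in neurons and 59.1 CPM in NPCs (1.55-fold, 1.46 to 1.66). All 4 Rab3 genes were thus higher in the neuron library, Rab3d by less. The ratio of Rab3a to Rab3d was 1.30 times as high in neurons as in NPCs (1.19 to 1.41), and such a ratio between genes does not depend on how the libraries were scaled. Per kb, the 4 genes summed to 163 CPM in neurons and 84.3 CPM in NPCs, of which Rab3a made 61.4% in neurons and 59.0% in NPCs. These shares rest on the exon lengths used, 1788 bases for Rab3a and 8892 for Rab3c, since by CPM Rab3c was the higher.

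Beyond the Rab3 genes the exocytic group differed less. Rab33a, found on post-Golgi vesicles of growing axons, was at 32.2 CPM in neurons and 19.95 CPM in NPCs (1.62-fold, 1.44 to 1.81). Rab10, which brings post-Golgi carriers to the plasma membrane and to growing axons, was abundant in both, at 294 CPM in neurons and 245 CPM in NPCs (1.2-fold, 1.16 to 1.24). The Rab27 genes, which dock secretory granules and melanosomes, had few reads. Rab27b had 40 reads in neurons and 17 in NPCs (2.79-fold after scaling, 1.54 to 5.24). Rab27a had 54 reads in neurons and 49 in NPCs (1.31-fold, 0.870 to 1.96), so no difference was detectable at this depth. Rab26, of synaptic vesicles and autophagy, and Rab37, of mast cell granules, were below 1 CPM, each with 8 reads in neurons, and with 12 and 13 in NPCs. Without the 4 Rab3 genes, a set left out after the values were seen, the median of the group was 0.46 in place of 0.71. The sum was then 331 CPM in neurons and 268 CPM in NPCs, or 1.23-fold in place of 1.61-fold. The sums of the microglia and Cajal-Retzius markers, given above, were higher in the same library, by 4.31-fold and 4.17-fold.

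**Figure D2:**
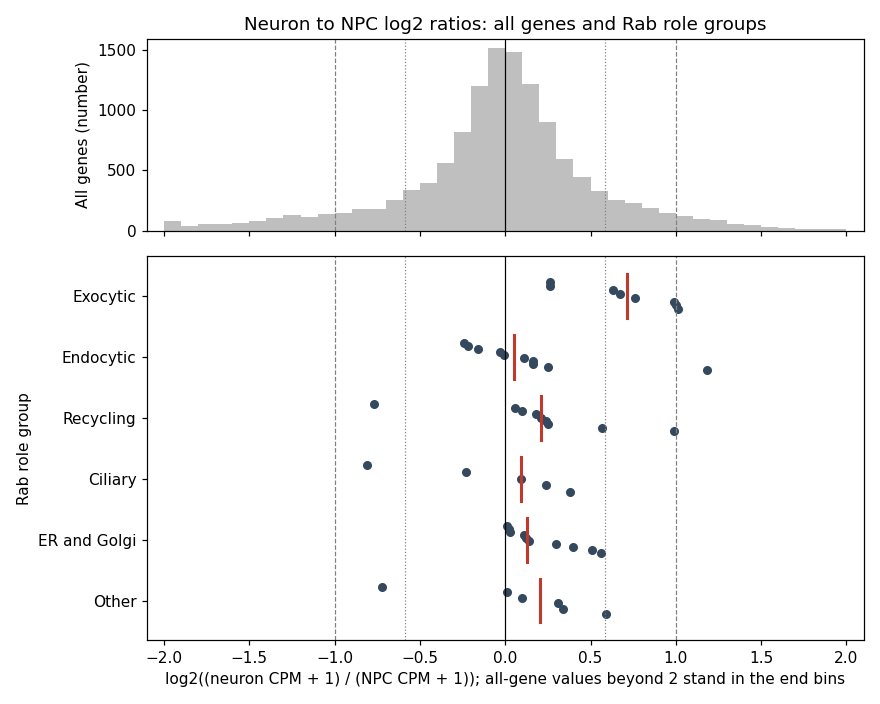
Upper panel, histogram of the log2 ratio of neuron to NPC (1 CPM added to both) for the 12693 genes at 1 CPM or more; lower panel, each measured Rab gene as a point by role group, with the group's median as a red bar; dotted and dashed lines stand at 1.5-fold and 2-fold. The exocytic median (0.71) lies farther right than the endocytic (0.05), recycling (0.21), ciliary (0.09) and ER and Golgi (0.13) medians, and all 8 exocytic points lie right of 0.

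The promoters of Rab3a and Rab3c are shown because these genes had nearly the same ratio. The RefSeq table (build GRCm38.p6) gave a start for 46 of the 56 genes, and the start farthest upstream was used. The 250 bases before it lie at chr8:70754453-70754702 on the plus strand for Rab3a and at chr13:110280207-110280456 on the minus strand for Rab3c. They are written 5′ to 3′ along the gene, and capitals mark GGGCGG (the GC box), CCAAT, and the E-boxes CAGATG and CAGCTG on either strand.
Rab3a: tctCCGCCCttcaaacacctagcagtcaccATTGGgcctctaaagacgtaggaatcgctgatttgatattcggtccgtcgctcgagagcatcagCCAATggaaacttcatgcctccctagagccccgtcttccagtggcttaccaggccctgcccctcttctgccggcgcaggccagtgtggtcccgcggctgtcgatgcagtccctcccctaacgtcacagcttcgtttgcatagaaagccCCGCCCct
Rab3c: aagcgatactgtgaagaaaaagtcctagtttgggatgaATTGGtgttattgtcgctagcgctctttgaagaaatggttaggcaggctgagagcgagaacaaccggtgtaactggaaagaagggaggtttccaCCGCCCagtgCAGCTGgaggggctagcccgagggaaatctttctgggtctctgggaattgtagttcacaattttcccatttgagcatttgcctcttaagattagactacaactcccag
Rab3a holds 2 GC boxes, 2 CCAAT boxes and 16 CpG, and Rab3c 1 GC box, 1 CCAAT box, 1 CAGCTG and 7 CpG. Neither window holds TATAAA. The Rab windows had a median of 17 CpG, against 10 over 17492 protein-coding promoters of the same length. Those promoters were not limited to genes measured in these libraries, and a set of measured genes was not compared. The GC box stood in 32 of the 46 windows (69.6%, against 42.7% of protein-coding and 33.0% of all 27025 promoters), and CCAAT in 22 (47.8%, against 36.5% and 34.5%). TATAAA stood in 3 (6.52%, against 12.4% and 13.0%). CAGATG stood in 4 (8.70%, against 12.6% and 14.5%), CAGCTG in 7 (15.2%, against 11.6% and 12.7%) and the cAMP response element TGACGTCA in 2 (4.35%, against 1.98% and 1.60%). The neuronal silencer element RE1, allowing up to 3 mismatches to its consensus, was in 0 of the 46 windows and in 0.903% of protein-coding promoters, which says only that these letters are not in these windows. All motifs were searched on both strands, a match is not a binding site, and GC boxes can overlap other GC-rich motifs.

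Endocytic Rab genes stood close to equal, with 1 exception, Rab9b. Of 10 measured genes 5 lay on each side, and the median log2 ratio was 0.05, or −0.02 when the libraries were scaled by total reads. The Rab9 proteins return cargo receptors from late endosomes to the trans-Golgi network, and the pair parted more than any other of the 20 paralog pairs compared. Rab9b was at 13.4 CPM in neurons and 5.38 CPM in NPCs (2.499-fold, 2.04 to 3.07), the largest log2 ratio of the family with 1 CPM added; with 5 CPM added it was 0.83, below the 0.99 of Rab3c. Rab9 was at 20.4 CPM in neurons and 23.95 CPM in NPCs (1.17-fold higher in NPCs, 1.04 to 1.33). The ratio of Rab9b to Rab9 was 2.93 times as high in neurons (2.33 to 3.69). Per kb, Rab9b made 19.3% of the pair in neurons and 7.54% in NPCs, of sums of 17.5 CPM in neurons and 17.9 CPM in NPCs. Rab9 is among the genes with a near-identical pseudogene. Because the pair differed, the 250 bases before the Rab9b start (chrX:136868557-136868806, minus strand) and the Rab9 start (chrX:166479868-166480117, minus strand) are shown, with the same motifs in capitals.
Rab9b: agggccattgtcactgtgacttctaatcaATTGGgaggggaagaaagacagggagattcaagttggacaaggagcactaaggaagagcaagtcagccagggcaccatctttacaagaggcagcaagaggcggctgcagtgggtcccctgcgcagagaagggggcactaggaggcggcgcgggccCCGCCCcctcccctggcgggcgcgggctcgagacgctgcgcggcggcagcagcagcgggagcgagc
Rab9: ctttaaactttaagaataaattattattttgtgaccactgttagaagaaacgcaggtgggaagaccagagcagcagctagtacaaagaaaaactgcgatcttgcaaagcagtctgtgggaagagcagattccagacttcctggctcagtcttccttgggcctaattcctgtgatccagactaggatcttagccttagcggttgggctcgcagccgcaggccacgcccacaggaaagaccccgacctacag
The Rab9b window has 16 CpG, 1 GC box and 1 CCAAT box. The Rab9 window has 7 CpG and none of the motifs in capitals.

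The other endocytic genes differed by less than 1.2-fold. Rab31, which carries cargo between the trans-Golgi and endosomes, leaned most towards NPCs, at 60.1 CPM in neurons and 71.3 CPM in NPCs (1.185-fold higher in NPCs, 1.105 to 1.27). Its relative Rab22a, of early endosomes, was at 28.7 CPM in neurons and 32.1 CPM in NPCs (1.12-fold higher in NPCs, 1.01 to 1.24). The early endosome genes Rab5b, Rab5a and Rab5c drive fusion of incoming vesicles. Rab5b, the highest by CPM, was at 142 CPM in neurons and 146 CPM in NPCs (ratio 0.978, 0.933 to 1.03), and Rab5a at 89.3 CPM in neurons and 89.9 CPM in NPCs (ratio 0.993, 0.936 to 1.05). Rab5c was at 112 CPM in neurons and 100.1 CPM in NPCs (1.12-fold, 1.06 to 1.185). No difference of Rab5b or Rab5a was thus detectable beyond counting error. Rab7, which takes late endosomes to the lysosome, was at 74.0 CPM in neurons and 66.0 CPM in NPCs (1.12-fold, 1.05 to 1.199). Rab21, which handles integrins on early endosomes, was at 33.8 CPM in neurons and 28.3 CPM in NPCs (1.195-fold, 1.08 to 1.32). Rab24, linked to autophagy, was at 47.3 CPM in neurons and 43.9 CPM in NPCs (1.08-fold, 0.992 to 1.17). Rab20, a phagosomal Rab, had 1 read in neurons and 0 in NPCs.

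Recycling Rab genes leaned towards neurons by a small margin, much as the whole family did. Of 9 measured genes 8 lay on the neuron side, 1 of them past 1.5-fold, and the median log2 ratio was 0.21. Of all measured Rab genes 81.2% lay on that side, with a median of 0.20, and of all genes 49.3%. Past 1.5-fold towards neurons lay 10.6% of all genes. The recycling gene past it was Rab15, a Rab of early and recycling endosomes best known from neural tissue. Rab15 was at 20.2 CPM in neurons and 9.68 CPM in NPCs (2.09-fold, 1.79 to 2.44). In the other direction stood Rab13, which delivers proteins to tight junctions of epithelia and endothelia. Rab13 was at 4.30 CPM (98 reads) in neurons and 8.05 CPM (217 reads) in NPCs, 1.87-fold higher in NPCs (1.47 to 2.40). All 8 endothelial markers were higher in NPCs as well, with log2 ratios of −2.02 to −0.87, and their part in Rab13 was not tested. Rab11b and Rab11a, the Rabs of the slow recycling endosome, differed little. Rab11b, the highest by CPM, was at 239 CPM in neurons and 223 CPM in NPCs (1.07-fold, 1.03 to 1.11), and Rab11a at 131 CPM in neurons and 115 CPM in NPCs (1.13-fold, 1.08 to 1.19).

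The other recycling genes lay between these. Rab4a, of the fast recycling route, was at 21.6 CPM in neurons and 14.2 CPM in NPCs (1.52-fold, 1.33 to 1.74), under 1.5-fold once 1 CPM is added. Its paralog Rab4b was at 20.9 CPM in neurons and 17.9 CPM in NPCs (1.17-fold, 1.03 to 1.33). Rab35, of fast recycling and neurite growth, was at 92.5 CPM in neurons and 77.7 CPM in NPCs, and Rab12, of transferrin receptor degradation, at 65.7 CPM in neurons and 55.3 CPM in NPCs. Both were 1.19-fold higher in neurons. Rab14, between Golgi and endosomes, was at 232 CPM in neurons and 222 CPM in NPCs (1.05-fold, 1.01 to 1.09) and changed side when the libraries were scaled by total reads. The epithelial Rab17 had 0 reads in both libraries and Rab25 had 3 in neurons and 6 in NPCs. A count of 0 allows up to 3 reads, or 0.132 CPM in neurons and 0.111 CPM in NPCs.

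Ciliary Rab genes were present in both populations and split by gene. Of 5 genes 3 lay on the neuron side and 2 on the NPC side, and the median log2 ratio was 0.09, or 0.21 when Rab10, Rab11a and Rab35, which also act at cilia, were counted in. Rab8b carries membrane to the base of the cilium and to the cell surface, as Rab8a does, and with 1 CPM added its log2 ratio lay farthest towards NPCs of the family, though the plain folds of the scarcer Rab13 and Rab36 are larger. It was at 113 CPM (2580 reads) in neurons and 199.9 CPM (5391 reads) in NPCs, 1.77-fold higher in NPCs (1.68 to 1.85). Rab23, which holds back Hedgehog signalling, leaned most towards neurons, at 55.3 CPM in neurons and 42.2 CPM in NPCs (1.31-fold, 1.21 to 1.42). Rab8a was at 66.4 CPM in neurons and 62.3 CPM in NPCs (1.07-fold, 0.995 to 1.14), which is not a detectable difference. The paralogs therefore differed in balance, since the ratio of Rab8a to Rab8b was 1.88 times as high in neurons (1.73 to 2.05). Per kb, Rab8b made 62.1% of the pair in neurons and 75.5% in NPCs. Rab34, needed for intracellular ciliogenesis, was at 25.9 CPM in neurons and 21.7 CPM in NPCs (1.19-fold, 1.06 to 1.34). Rab28, of ciliary membrane turnover in photoreceptors, was at 32.2 CPM in neurons and 38.0 CPM in NPCs (1.18-fold higher in NPCs, 1.07 to 1.30). The ciliary sum was 293 CPM in neurons and 364 CPM in NPCs, and the ratio of sums was 0.805 with Rab8b and 1.10 without it. Rab8b too is among the genes with a near-identical pseudogene. The sums of radial glia and pericyte markers were 2.77-fold and 21.6-fold higher in NPCs, and their part in Rab8b was not tested.

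The Rab8 promoters are shown for the same reason as the Rab9 pair. The window of Rab8b lies at chr9:66919706-66919955 on the minus strand and that of Rab8a at chr8:72160950-72161199 on the plus strand.
Rab8b: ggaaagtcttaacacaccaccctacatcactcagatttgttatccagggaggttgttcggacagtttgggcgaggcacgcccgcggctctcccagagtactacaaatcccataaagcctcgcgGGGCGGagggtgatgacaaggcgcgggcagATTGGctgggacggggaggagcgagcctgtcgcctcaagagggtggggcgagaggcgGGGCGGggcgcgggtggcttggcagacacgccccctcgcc
Rab8a: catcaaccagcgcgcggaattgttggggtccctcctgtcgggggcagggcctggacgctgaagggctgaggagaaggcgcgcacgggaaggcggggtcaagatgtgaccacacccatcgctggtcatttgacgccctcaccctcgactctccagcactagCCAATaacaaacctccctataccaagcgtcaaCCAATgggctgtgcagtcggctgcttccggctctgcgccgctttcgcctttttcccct
The Rab8b window holds 2 GC boxes, 1 CCAAT box and 20 CpG, and the Rab8a window 0 GC boxes, 2 CCAAT boxes and 18 CpG.

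**Figure D3:**
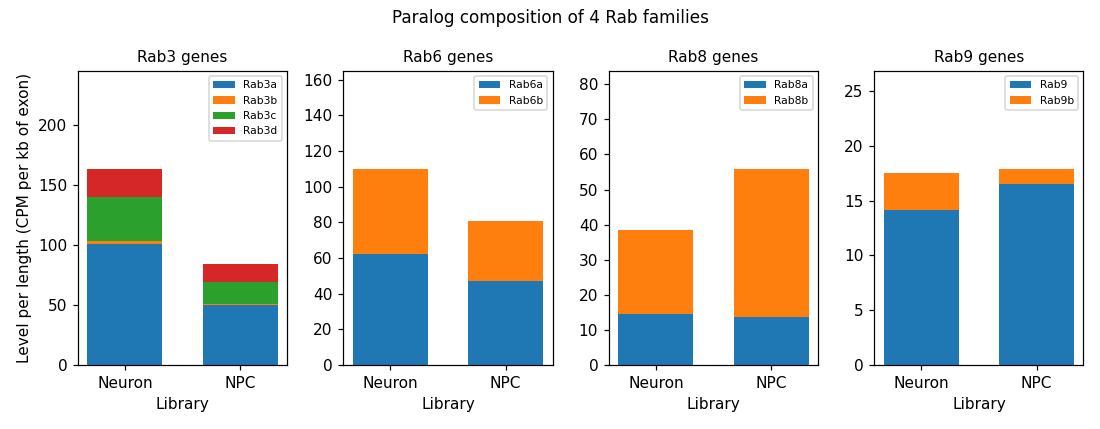
Stacked bars of CPM per kb of exon for the Rab3, Rab6, Rab8 and Rab9 genes, in the neuron library (left bar) and the NPC library (right bar) of each panel, from 1 library each and without error bars. The Rab3 sum is higher in neurons (163 CPM per kb in neurons, 84.3 in NPCs) with much the same make-up, while the pairs Rab8 and Rab9 shift in make-up, Rab8b making 62.1% in neurons and 75.5% in NPCs, and Rab9b 19.3% in neurons and 7.54% in NPCs.

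All 10 measured ER and Golgi genes lay on the neuron side as deposited, 0 of them past 1.5-fold, and their median log2 ratio was 0.13. On that side lay 81.2% of all measured Rab genes, whose median was the higher at 0.20, and 49.3% of all genes. Past 1.5-fold towards neurons lay 10.6% of all genes. Rab30, a Golgi Rab, had the largest ratio, with 16.6 CPM in neurons and 10.9 CPM in NPCs (1.52-fold, 1.30 to 1.77), which is under 1.5-fold once 1 CPM is added. Rab6b, which like Rab6a moves vesicles from the Golgi to the ER and the cell surface, was the highest by CPM, at 241 CPM in neurons and 169 CPM in NPCs (1.42-fold, 1.37 to 1.48). Rab6a was at 214 CPM in neurons and 161 CPM in NPCs (1.33-fold, 1.27 to 1.38). Rab6b is the form found mainly in brain, and the ratio of Rab6b to Rab6a was 1.07 times as high in neurons (1.01 to 1.14). Rab2a was at 215 CPM in neurons and 174 CPM in NPCs (1.24-fold, 1.19 to 1.29). The ER-to-Golgi gene Rab1 (Rab1a in RefSeq) was at 225 CPM in neurons and 204 CPM in NPCs (1.11-fold, 1.06 to 1.15), and its paralog Rab1b at 127 CPM in neurons and 116 CPM in NPCs (1.09-fold, 1.04 to 1.15). For 4 genes no difference was detectable beyond counting error. These were Rab43 (22.3 CPM in neurons, 20.6 CPM in NPCs), Rab18 of lipid droplets and the ER (121 CPM in neurons, 118 CPM in NPCs), Rab2b (42.1 CPM in neurons, 41.7 CPM in NPCs) and Rab33b (25.5 CPM in neurons, 25.4 CPM in NPCs). Rab18, Rab2b and Rab33b changed side when the libraries were scaled by total reads. Rab19 had 0 reads in neurons and 1 in NPCs.

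The remaining 8 genes were placed in none of these groups, though Rab32 and Rab38 had the endocytic group as a second role. Rab36, a relative of Rab34, was at 4.79 CPM (109 reads) in neurons and 8.53 CPM (230 reads) in NPCs, 1.78-fold higher in NPCs (1.41 to 2.26). Rab40b, which carries a SOCS box and works with cullin ubiquitin ligases, was at 2.06 CPM (47 reads) in neurons and 1.04 CPM (28 reads) in NPCs (1.99-fold, 1.22 to 3.30). Its relative Rab40c was at 56.1 CPM in neurons and 44.2 CPM in NPCs (1.27-fold, 1.17 to 1.37). Rab39b, whose human counterpart is mutated in X-linked intellectual disability, was at 40.2 CPM in neurons and 39.97 CPM in NPCs (1.01-fold, 0.920 to 1.10). Rab39 was at 5.84 CPM in neurons and 5.38 CPM in NPCs (1.09-fold, 0.852 to 1.38), so neither Rab39 gene differed detectably. The genes of melanosomes and other lysosome-related organelles were scarce, Rab32 with 40 reads in neurons and 33 in NPCs (1.44-fold, 0.883 to 2.35) and Rab38 with 2 reads in each. Rab44 had 0 reads in both.

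Close relatives within the family differed in how far they parted. Among 13 subfamilies with several measured genes 20 pairs could be formed, and for 8 pairs the counting interval of the change in their ratio included 1. For the rest it did not. In 5 pairs the ratio differed by at least 1.5 times, among them Rab9b to Rab9 and Rab8a to Rab8b, described above. The others were Rab27b to Rab27a (2.14 times as high in neurons, 1.07 to 4.24), Rab33a to Rab33b (1.61 times, 1.38 to 1.88) and Rab40b to Rab40c (1.57 times, 0.976 to 2.52), whose interval includes 1. At the other end stood Rab3a to Rab3c with a ratio 0.940 to 1.06 times as high in neurons, Rab1 to Rab1b with 1.01 times (0.951 to 1.08) and Rab11a to Rab11b with 1.06 times (0.995 to 1.13).

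**Figure D4:**
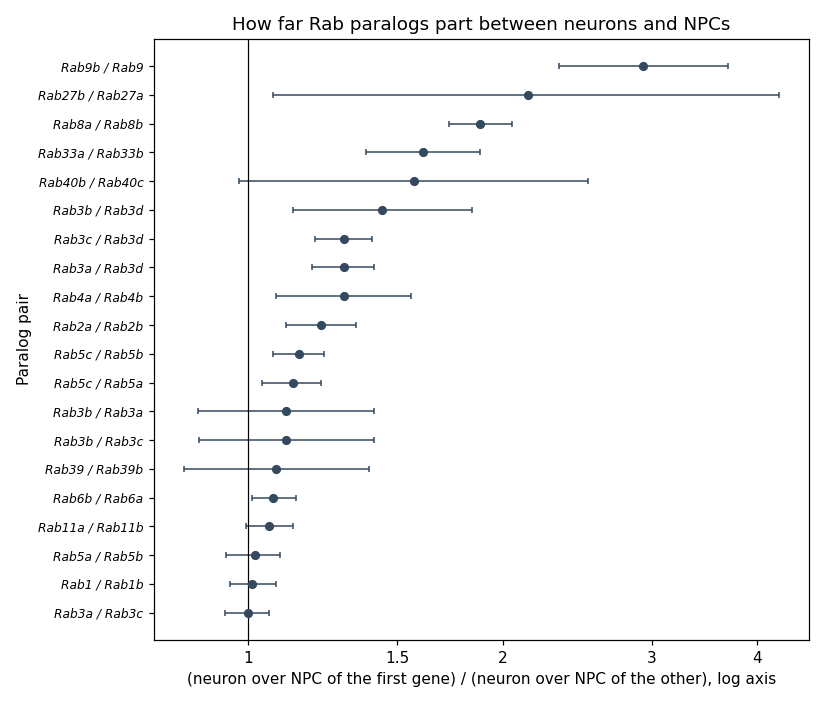
Change in the ratio of 2 paralogs between the neuron and the NPC library, for 20 pairs of measured Rab genes with the same number, on a log axis; each pair is written with the gene that is relatively higher in neurons first, and bars are 95% counting intervals. Rab9b to Rab9 lies farthest right at 2.93, and 8 bars include 1.

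The proteins that run the Rab cycle were compared through 8 lists. Some genes are shared between lists, among them Rabep1 (endocytic and recycling), Exoc5 (recycling and ciliary) and Dennd5a (exchange factors and Golgi). They enter the median of each of their lists and are counted once in the total. Of 157 regulators and effectors 145 were measured. Of these 86 lay on the neuron side and 59 on the NPC side, where 49.3% and 50.7% of all genes lay. The median log2 ratio of the 145 was 0.07, with 12 past 1.5-fold towards neurons and 8 towards NPCs. Past that fold lay 10.6% of all genes towards neurons and 13.1% towards NPCs, which are larger shares than those of the partners. Of 7 genes for prenylation and membrane extraction (median 0.11), Chml, a Rab escort protein, was at 10.2 CPM in neurons and 16.5 CPM in NPCs (1.62-fold higher in NPCs, 1.38 to 1.91). Rabac1, a prenylated Rab acceptor, was at 30.8 CPM in neurons and 23.0 CPM in NPCs (1.34-fold, 1.2 to 1.49). Exchange factors had a median of −0.01 over 30 genes. Rab3il1, an exchange factor for Rab8, was at 12.03 CPM in neurons and 6.86 CPM in NPCs (1.75-fold, 1.45 to 2.12). Dennd1b, for Rab35, was at 24.98 CPM in neurons and 42.1 CPM in NPCs (1.68-fold higher in NPCs, 1.52 to 1.87). Rin3, for Rab5, was at 1.449 CPM (33 reads) in neurons and 2.82 CPM (76 reads) in NPCs (1.94-fold higher in NPCs, 1.28 to 3.02).

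GTPase activators had a median of 0.17 over 34 genes, of which 6 were past 1.5-fold towards neurons and 1 towards NPCs, where 10.6% and 13.1% of all genes were. Tbc1d30, which acts on Rab8 at the cilium, was at 53.8 CPM in neurons and 22.9 CPM in NPCs (2.35-fold, 2.13 to 2.59). Rabgap1l was at 338 CPM in neurons and 165 CPM in NPCs (2.05-fold, 1.98 to 2.13). Tbc1d4, known from insulin-driven glucose transporter traffic through Rab10, was at 17.4 CPM in neurons and 35.9 CPM in NPCs (2.06-fold higher in NPCs, 1.83 to 2.32). Effectors of exocytosis lay on both sides, with a median of 0.34 over the 10 measured of 18 genes. Rims4 and another of the 10 reached 1 CPM in neurons only. Genes of this list below 1 CPM in both libraries had log2 ratios of −0.56 to 0.09, most of them negative. A median without the filter was not computed, so the 0.34 holds for the measured genes alone. Rims1, the Rab3-binding scaffold of the active zone, was at 13.7 CPM in neurons and 6.15 CPM in NPCs (2.23-fold, 1.84 to 2.70), and its short relative Rims4 at 2.06 CPM (47 reads) in neurons and 0.593 CPM (16 reads) in NPCs (3.48-fold, 1.94 to 6.57). Sytl5, a Rab27 effector, was at 1.36 CPM (31 reads) in neurons and 5.93 CPM (160 reads) in NPCs (4.36-fold higher in NPCs, 2.95 to 6.63).

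Effectors of recycling Rabs had the highest of the 8 medians, 0.35 over 18 genes, 14 of them on the neuron side. Of all genes 49.3% lay on that side. The Rab11 effector Rab11fip1 was at 5.53 CPM in neurons and 2.22 CPM in NPCs (2.49-fold, 1.81 to 3.44). Rab11fip4, of the same family, was at 107 CPM in neurons and 59.6 CPM in NPCs (1.79-fold, 1.68 to 1.91). Micall1, a scaffold of recycling tubules, was at 109 CPM in neurons and 73.7 CPM in NPCs (1.47-fold, 1.39 to 1.56). Endocytic effectors had a median of 0.02 over 17 genes. Appl2, of Rab5-positive signalling endosomes, was at 25.55 CPM in neurons and 42.9 CPM in NPCs (1.68-fold higher in NPCs, 1.52 to 1.86). The Rab5 effector Rabep1 was at 182 CPM in neurons and 138 CPM in NPCs (1.32-fold, 1.27 to 1.38), and the Rab7 effector Rubcn, listed as 1700021K19Rik, at 105.5 CPM in neurons and 81.8 CPM in NPCs (1.29-fold, 1.22 to 1.37).

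Ciliary partners had a median of 0.01 over 18 genes and Golgi effectors one of 0.04 over 15. Lrrk2, the kinase that phosphorylates Rab8 and Rab10, was at 3.25 CPM (74 reads) in neurons and 6.86 CPM (185 reads) in NPCs (2.11-fold higher in NPCs, 1.60 to 2.80). Rilpl1, which binds the phosphorylated Rabs, was at 9.31 CPM in neurons and 13.2 CPM in NPCs (1.41-fold higher in NPCs, 1.19 to 1.68). The exocyst subunit Exoc5 was at 156 CPM in neurons and 115 CPM in NPCs (1.35-fold, 1.28 to 1.41). Of the Rab6-binding proteins on the Golgi list, Kif20a, a kinesin of dividing cells, was at 44.2 CPM in neurons and 82.8 CPM in NPCs (1.87-fold higher in NPCs, 1.74 to 2.02). Dennd5a was at 279 CPM in neurons and 345 CPM in NPCs (1.24-fold higher in NPCs, 1.2 to 1.28), and Erc1, a scaffold for vesicle docking, at 188 CPM in neurons and 144 CPM in NPCs (1.31-fold, 1.25 to 1.37).

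**Figure D5:**
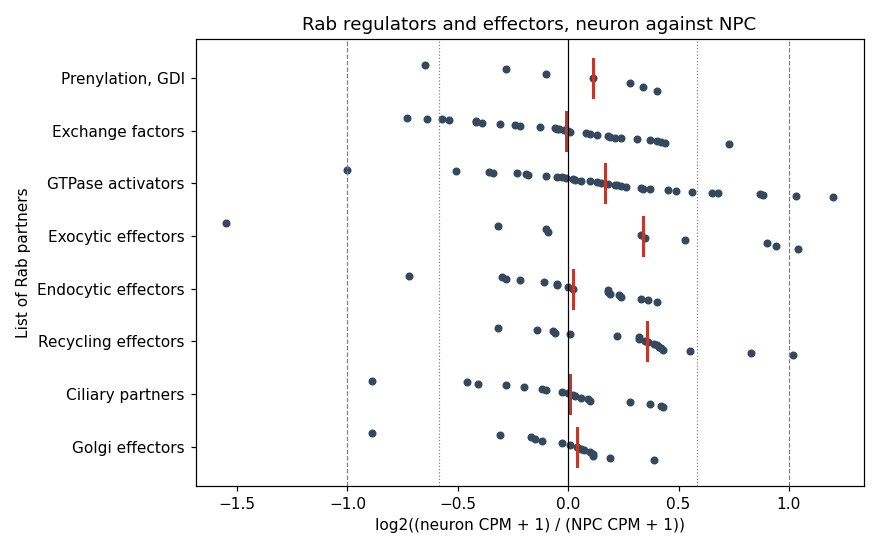
Log2 ratio of neuron to NPC (1 CPM added to both) for each measured gene of 8 lists of Rab regulators and effectors, as points with the list's median as a red bar; dotted and dashed lines stand at 1.5-fold and 2-fold. Medians run from −0.01 for exchange factors to 0.35 for recycling effectors, and Sytl5 lies farthest left at −1.55.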

How the data were processed

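The deposited files hold 1 value per gene for each of 2 libraries. Per the submitters' processing notes, CASAVA 1.9, TopHat 1.2.0, SAMtools 0.1.18, edgeR and the build mm9 were used, with no role or order. Which annotation was used, and whether strand was, the sources used here do not give. The values deposited by the authors are a signal, not whole numbers, but after subtraction of a small offset they are whole multiples of 1.12797 (neuron) and 0.952727 (NPC). Whole reads within 0.05 were recovered for 100% of values, 23312054 in neurons and 26346226 in NPCs; neuron values under 0.01 were taken as 0. With 1 library per group no count test can be made. The authors' scaling was kept, and both libraries were divided by 25698104 and multiplied by 1000000 to give CPM.

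Log2 ratios had 1 CPM added, and genes needed 1 CPM in at least 1 library. Counting intervals are exact Clopper-Pearson at 95% (for paralog ratios, from the normal approximation of the log ratio; for levels per kb, exact Poisson). Lacking molecular identifiers, reads need not be independent molecules. Exon lengths came from GENCODE vM21, by symbol, for all 56 members; 18 measured members overlap exons of another gene and 7 have a near-identical pseudogene. Marker and partner lists held 68 and 160 gene symbols, of which 68 and 159 were found. The 159 partner symbols stood for 157 distinct genes, since some of them led to the same gene. The members and lists were chosen with earlier results of these data known. All members may be named, and of each partner list the 3 with the largest absolute log2 ratio are named, except 1 gene that is not reported here. The calculations were tested on simulated data. Alternatives were other scalings (edgeR 4.0.16), added values and filters. Python 3.11.15, scipy 1.17.1 and blastn 2.17.0 were used.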

Additional observations from a re-analysis of the deposited data

How the results depend on the processing

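No paired analysis was possible because each group has 1 library. With TMM scaling no group median or sum moved by more than 0.5 times the width of its interval, and no count by more than 1.5 times. For sums this was the counting interval, and for medians it ran between the medians of the members' lower and upper bounds. TMM could hardly move these results. It sets the libraries apart by 1.181, and the deposited scaling, the ratio of the neuron step to the NPC step, by 1.184. Scaling by total reads, at 1.130, is the alternative that differs more. The count of members at least 2-fold higher in neurons was 2 with TMM scaling. With scaling by total reads, which shifted the median of all genes to -0.07, the summed ratio of neuron to NPC was 1.54 for exocytic, 0.979 for endocytic, 1.06 for recycling, 0.768 for ciliary, 1.14 for ER and Golgi and 1.12 for all members. Under it 34 in place of 39 members were higher in neurons, and 41.9% in place of 49.3% of all genes were. The members that changed side were Rab14, Rab18, Rab2b, Rab33b and Rab39b. With upper-quartile scaling the sum over all members was 1.16, and Rab33b and Rab39b changed side. The count of members at least 2-fold higher in neurons was 1 with total reads, 1 with upper quartiles, 5 with 0.5 CPM added, 0 with 5 CPM added and 6 with none added, a setting chosen after seeing the data; Rab3a, Rab3b, Rab3c and Rab15 lie close to that fold. The count at least 1.5-fold higher in NPCs was 1 with 5 CPM added and 1 with a minimum of 10 CPM, which leaves out Rab13 and Rab36 by construction. The ciliary median was 0.21 when Rab10, Rab11a and Rab35 were counted in it as well. Chosen after seeing the data too, leaving out the 4 Rab3 genes gave an exocytic median of 0.46 and a summed ratio of 1.23, and leaving out Rab8b a ciliary summed ratio of 1.10. Leaving out members that overlap another gene or have a near-identical pseudogene gave a median of 0.25 over the rest. The cause of the other changes was not tested. Depth limits most the measured members with the fewest reads, Rab27a, Rab27b, Rab32 and Rab40b.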
